A study of Homo sapiens with 32 samples.

Results

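The genes described here make, or in 1 case destroy, leukotrienes, prostaglandins and thromboxane, the oxygenated lipids that blood cells form from arachidonic acid. They are ALOX5, ALOX5AP, LTA4H, LTC4S, PTGS1, PTGS2, PTGES, HPGD, HPGDS and TBXAS1, 10 of the 23073 genes in the deposited table. Their rows were taken by gene symbol, and the list was chosen with earlier results of these data known. All 10 symbols were found, in 11 rows. The extra row is a copy of ALOX5 on an alternate haplotype of chromosome 10, and it stood at 0 in all 32 libraries. A filter on low values, at least 1 FPKM (fragments per kilobase of transcript, scaled to library depth) in at least 2 libraries, was passed by 6 of the 10 genes: ALOX5, ALOX5AP, LTA4H, PTGS1, HPGDS and TBXAS1.

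RNA was sequenced from Kasumi-1 and SKNO-1, human lines of acute myeloid leukaemia that both carry the t(8;21) translocation that joins RUNX1 to RUNX1T1. Cells of each line received 0.1% DMSO, RN-1 at 1 µM, GSK690 at 1 µM or GSK690* at 1 µM for 24 or 72 h, giving 16 groups of 2 biological replicates. RN-1 blocks the histone demethylase KDM1A irreversibly, GSK690 blocks it reversibly, and GSK690* is the isomer of GSK690 labelled inactive. Kasumi-1 was grown with 20% serum and SKNO-1 with 10% serum and 10 ng/mL of the cytokine GM-CSF, so that line and medium cannot be told apart. The later SKNO-1 libraries carry 72 h in their titles and 4 days in the treatment protocol. For the 16 libraries at 72 h, the deposited sample table swaps the lines relative to the titles in the labels. The titles were followed, and by them each 72 h library had a Pearson r across genes of 0.974 to 0.986 to its line at 24 h, against 0.848 to 0.870 to the other line. Each line stands for 1 leukaemia. The p-values rest on the spread between replicates, estimated for each gene over both lines and both times together, and not on spread between leukaemias.

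Arachidonic acid released from membranes takes 1 of 2 main routes in myeloid cells. In the leukotriene route, 5-lipoxygenase (ALOX5) works with a membrane protein that hands it the fatty acid (ALOX5AP, also called FLAP) to make leukotriene A4, which LTA4H converts to the neutrophil attractant leukotriene B4 and LTC4S joins to glutathione to start the cysteinyl leukotrienes of mast cells and eosinophils. In the cyclooxygenase route, PTGS1 or the inducible PTGS2 makes prostaglandin H2, from which PTGES makes prostaglandin E2, HPGDS prostaglandin D2 and TBXAS1 thromboxane A2, while HPGD inactivates prostaglandins.

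The promoters of ALOX5AP, TBXAS1 and LTA4H are shown because transcripts of the first and second fell in Kasumi-1 with the inhibitors, at both times and at 72 h respectively, while LTA4H transcripts rose in both lines. RefSeq windows (GRCh38.p14, a later build than the hg19 of the expression files) were given for 9 of the 10 genes. None was given for ALOX5, so its promoter was not searched. In the others the 250 bases before the transcription start were searched. Capitals mark GAGGAAGT, a motif of the myeloid factor PU.1, on either strand (ACTTCCTC where it lies on the opposite strand). Each line reads 5′ to 3′ on the strand of the gene.
ALOX5AP, chr13:30713235-30713484, plus strand: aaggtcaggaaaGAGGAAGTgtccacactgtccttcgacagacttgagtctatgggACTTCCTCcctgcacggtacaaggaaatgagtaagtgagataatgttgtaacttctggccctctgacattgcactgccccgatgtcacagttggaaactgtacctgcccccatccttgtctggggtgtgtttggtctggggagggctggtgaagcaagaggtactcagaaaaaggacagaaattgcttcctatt
TBXAS1, chr7:139829014-139829263, plus strand: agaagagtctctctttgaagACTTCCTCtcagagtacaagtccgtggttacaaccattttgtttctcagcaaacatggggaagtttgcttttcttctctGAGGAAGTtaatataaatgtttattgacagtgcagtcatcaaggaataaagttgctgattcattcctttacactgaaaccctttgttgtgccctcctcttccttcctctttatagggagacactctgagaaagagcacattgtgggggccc
LTA4H, chr12:96035588-96035837, minus strand: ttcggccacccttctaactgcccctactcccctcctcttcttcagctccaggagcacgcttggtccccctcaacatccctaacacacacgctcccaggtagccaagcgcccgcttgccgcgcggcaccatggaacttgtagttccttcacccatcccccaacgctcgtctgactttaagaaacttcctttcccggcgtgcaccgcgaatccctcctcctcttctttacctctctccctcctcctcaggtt
ALOX5AP held the motif at -238 to -231 and, on the opposite strand, at -194 to -187, where -1 is the last base before the start. TBXAS1 held it at -151 to -144 and, on the opposite strand, at -230 to -223. Of 35116 windows of the same length, 2.17% held at least 1 match and 0.0541% held at least 2, and no other window of these 9 genes held any. Only exact matches were counted, and partial forms, such as acttcct in the LTA4H window, were not. The other motifs searched on both strands were GGGCGG (an Sp1 box, in 42.6% of windows), TGTGGT (RUNX, 11%), AAATCA (GFI1, 11.6%) and TATAAA (the core element of many promoters, 10.7%). None of them was found in the windows of ALOX5AP and LTA4H. TBXAS1 held TATAAA at -140 to -135 and on the opposite strand at -43 to -38, PTGS2 at -32 to -27, HPGDS at -28 to -23 and on the opposite strand at -176 to -171, and a window of PTGS1 on the opposite strand at -208 to -203. LTC4S held TGTGGT at -67 to -62, GGGCGG was in windows of LTC4S, PTGS1, PTGES and HPGD, and no match overlapped another. These are matches of letters in a reference window and binding was not measured.

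With the inhibitors, transcripts of ALOX5 and LTA4H were higher in both lines at both times, and those of ALOX5AP were lower in Kasumi-1 alone among the tests that passed. TBXAS1 was lower in Kasumi-1 at 72 h, and PTGS1 and HPGDS passed in no comparison of inhibitors with controls. Values are FPKM, RN-1 and GSK690 form the inhibitor side (4 libraries) and DMSO and GSK690* the control side (4 libraries), and log2 changes were computed from log2(FPKM + 1), which understates the change of a gene near 0. The words rose and fell are kept for genes where limma's p, adjusted by Benjamini and Hochberg over all genes tested, was under 0.05. In Kasumi-1, 3 of the 6 tested genes passed at 24 h (2 higher and 1 lower, where 20.9% of all genes passed, 9.69% higher and 11.2% lower) and 4 at 72 h (2 higher and 2 lower, where 25.7% passed, 13% higher and 12.7% lower). In SKNO-1, 2 of the 6 passed at each time, both higher, where 9.08% of all genes passed at 24 h (5.64% higher and 3.44% lower) and 11.1% at 72 h (6.91% higher and 4.16% lower). The median log2 change of the 6 was 0.16 and 0.02 in Kasumi-1 (24 h, then 72 h) and 0.21 and 0.12 in SKNO-1, beside -0.01, -0.02, -0.02 and -0.02 over all genes tested. In bulk RNA, fewer cells with a transcript and less of it per cell cannot be told apart.

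**Figure D1:**
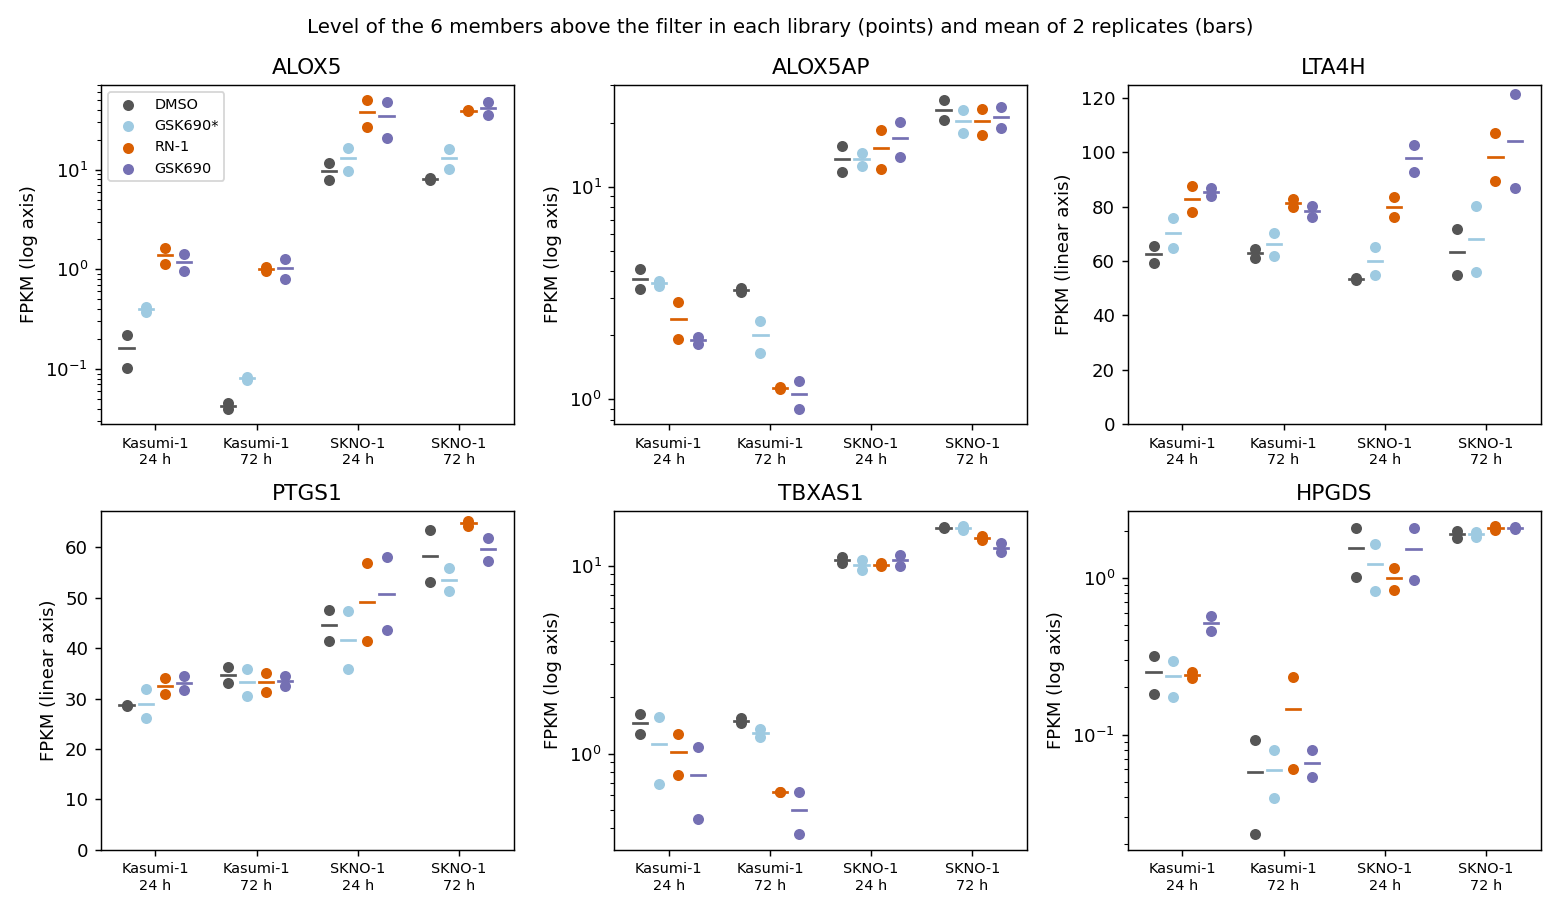
FPKM (vertical axis, log scale for ALOX5, ALOX5AP, TBXAS1 and HPGDS and linear from 0 for LTA4H and PTGS1) in each library (points) by cell line and time (horizontal axis), coloured by agent, with a bar at the mean of the 2 replicates. ALOX5 lies above both controls with RN-1 and GSK690 in all 4 sets, from 0.0615 to 1.02 FPKM in Kasumi-1 at 72 h and from 10.6 to 40.4 FPKM in SKNO-1 at 72 h, and ALOX5AP lies below the controls in Kasumi-1 alone.

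ALOX5 (ENSG00000012779, chromosome 10, 45869660 to 45941561, hg19), which carries out the committed step to leukotrienes, rose in all 4 sets. In Kasumi-1 at 24 h its level was 0.219 and 0.103 FPKM with DMSO, 0.421 and 0.372 with GSK690*, 1.64 and 1.14 with RN-1, and 1.42 and 0.959 with GSK690. At 72 h the same line gave 0.0401 and 0.0453 FPKM with DMSO, 0.0835 and 0.0772 with GSK690*, 1.06 and 0.959 with RN-1, and 1.28 and 0.796 with GSK690. Every inhibitor library of Kasumi-1 lay above every control of its time, and these levels are close to the limit of 1 FPKM used in the filter. In SKNO-1 at 24 h ALOX5 stood at 11.6 and 7.95 FPKM with DMSO, 16.5 and 9.69 with GSK690*, 49.6 and 26.7 with RN-1, and 47.6 and 20.9 with GSK690. SKNO-1 at 72 h gave 8.20 and 7.88 FPKM with DMSO, 16.1 and 10.1 with GSK690*, 39.5 and 38.8 with RN-1, and 48.1 and 35 with GSK690. The sides did not overlap there either, although at 24 h the library numbered 1 was higher than the one numbered 2 under all 4 agents.

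Mean ALOX5 rose from 0.279 ± 0.146 to 1.29 ± 0.302 FPKM (SD, n = 4 per side) in Kasumi-1 at 24 h and from 0.0615 ± 0.0220 to 1.02 ± 0.204 at 72 h, ratios of 4.63 and 16.6. In SKNO-1 it rose from 11.5 ± 3.70 to 36.2 ± 14.5 FPKM at 24 h and from 10.6 ± 3.83 to 40.4 ± 5.53 at 72 h, ratios of 3.16 and 3.82. On the log2(FPKM + 1) scale the changes were 0.84, 0.93, 1.53 and 1.88 in that order (SE 0.22; limma adjusted p = 0.00867, 0.00333, 6.54e-05 and 3.11e-06). The ratio of means was thus largest in Kasumi-1 at 72 h, where the starting level was lowest, and the log2 change on the offset scale was smallest in Kasumi-1. Each of these 4 calls held without any 1 library of its set. The call in SKNO-1 at 24 h was lost when the 8 libraries of that set were fitted alone (adjusted p = 0.0855).

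ALOX5AP (ENSG00000132965, chromosome 13, 31309644 to 31338556), the partner of 5-lipoxygenase, fell in Kasumi-1 while ALOX5 rose there. At 24 h its level in Kasumi-1 was 4.10 and 3.28 FPKM with DMSO, 3.59 and 3.41 with GSK690*, 2.85 and 1.93 with RN-1, and 1.81 and 1.96 with GSK690. At 72 h it was 3.20 and 3.33 FPKM with DMSO, 2.33 and 1.65 with GSK690*, 1.12 and 1.13 with RN-1, and 1.22 and 0.900 with GSK690. All inhibitor libraries lay below all controls at both times, and at 72 h the isomer lay between vehicle and inhibitors. The mean fell from 3.6 ± 0.360 to 2.14 ± 0.482 FPKM at 24 h and from 2.63 ± 0.786 to 1.09 ± 0.135 FPKM at 72 h (SD, n = 4 per side), log2 changes of -0.56 and -0.77 (SE 0.15; limma adjusted p = 0.00924 and 5.58e-04). The 24 h call was lost without DMSO replicate 1 (adjusted p = 0.0525) or RN-1 replicate 2 (adjusted p = 0.0636).

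SKNO-1 held more ALOX5AP. Its level at 24 h was 15.5 and 11.7 FPKM with DMSO, 14.4 and 12.5 with GSK690*, 18.5 and 12.1 with RN-1, and 20.1 and 13.8 with GSK690. At 72 h it was 25.5 and 20.6 FPKM with DMSO, 22.9 and 17.9 with GSK690*, 23.1 and 17.6 with RN-1, and 23.6 and 19 with GSK690. The sides overlapped at both times. Its log2 changes in SKNO-1 were 0.22 (95% interval -0.09 to 0.52) at 24 h and -0.06 (-0.36 to 0.25) at 72 h, and neither passed (limma adjusted p = 0.389 and 0.861).

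LTA4H (ENSG00000111144, chromosome 12, 96394605 to 96437298), which makes leukotriene B4, was the most abundant of the 10 per length, at 52.8 to 121 FPKM, and rose in all 4 sets by smaller factors than ALOX5. In Kasumi-1 at 24 h its level was 65.7 and 59.1 FPKM with DMSO, 75.7 and 64.8 with GSK690*, 87.6 and 78.1 with RN-1, and 86.9 and 83.9 with GSK690. At 72 h the values were 61.0 and 64.4 FPKM with DMSO, 61.8 and 70.3 with GSK690*, 82.6 and 80.0 with RN-1, and 76.2 and 80.1 with GSK690. The sides did not overlap, by the narrowest margin at 24 h, between 75.7 and 78.1 FPKM. SKNO-1 at 24 h gave 52.8 and 53.7 FPKM with DMSO, 65.2 and 54.7 with GSK690*, 83.5 and 76.1 with RN-1, and 103 and 92.7 with GSK690. SKNO-1 at 72 h gave 54.9 and 71.8 FPKM with DMSO, 56.1 and 80.1 with GSK690*, 89.2 and 107 with RN-1, and 86.7 and 121 with GSK690. Inhibitor libraries of SKNO-1 were again all above the controls, and at 72 h the library numbered 2 was the higher under every agent.

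Mean LTA4H went from 66.3 ± 6.88 to 84.1 ± 4.31 FPKM and from 64.4 ± 4.23 to 79.7 ± 2.64 FPKM in Kasumi-1 at 24 and 72 h (SD, n = 4 per side), ratios of 1.27 and 1.24. In SKNO-1 it went from 56.6 ± 5.80 to 88.8 ± 11.6 and from 65.7 ± 12.3 to 101 ± 16.2 FPKM, ratios of 1.57 and 1.54. The log2 changes were 0.34, 0.31, 0.64 and 0.62 (SE 0.11; limma adjusted p = 0.0342, 0.0492, 8.28e-04 and 7.66e-04). The Kasumi-1 calls stood close to the threshold: at 72 h the call was lost without any 1 of the 8 libraries (adjusted p 0.0534 to 0.170), and at 24 h without any but GSK690* replicate 1 (adjusted p 0.0514 to 0.122). In SKNO-1 both calls held without any 1 library, and the 72 h call was lost when the 8 libraries were fitted alone (adjusted p = 0.114).

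LTC4S (ENSG00000213316, chromosome 5, 179220980 to 179223648), which opens the cysteinyl branch, was too low to test, with a median of 0.164 FPKM over the 32 libraries and 1 library above 1 FPKM. That library was SKNO-1 at 24 h with RN-1, at 1.65 FPKM, and its replicate stood at 0.169. Kasumi-1 ranged from 0 to 0.204 FPKM and SKNO-1 from 0.113 to 1.65 FPKM, and inhibitor and control libraries overlapped in all 4 sets.

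**Figure D2:**
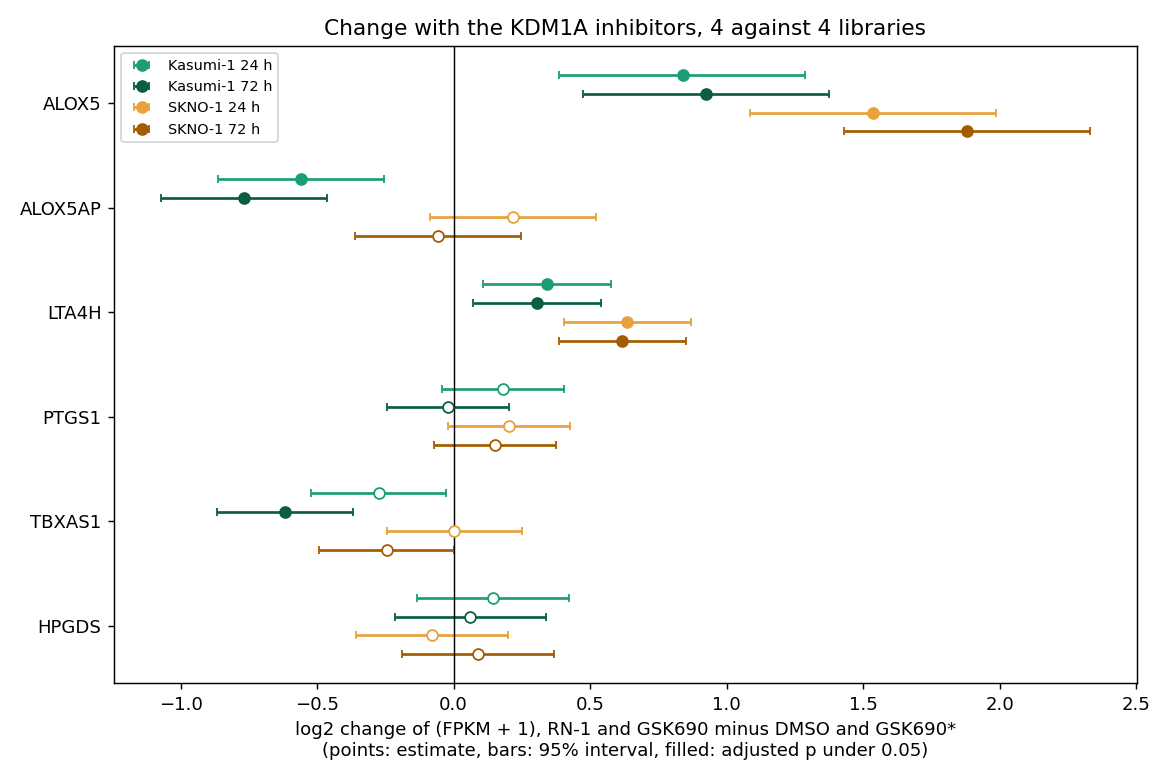
Log2 change of (FPKM + 1) with RN-1 and GSK690 against DMSO and GSK690* (horizontal axis) for the 6 genes above the filter (vertical axis), as the estimate with its 95% interval over 4 against 4 libraries and coloured by cell line and time, filled where the adjusted p was under 0.05. ALOX5 runs from 0.84 to 1.88 and LTA4H from 0.31 to 0.64, all filled, while ALOX5AP is filled in Kasumi-1 alone (-0.56 and -0.77).

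PTGS1 (ENSG00000095303, chromosome 9, 125132823 to 125157982), the constitutive cyclooxygenase, carried nearly all cyclooxygenase transcript per length. It stood at 26.1 to 65.3 FPKM over all libraries, and the inducible enzyme PTGS2 (ENSG00000073756, chromosome 1, 186640922 to 186649559) at 0.114 to 1.09 FPKM. PTGS1 had mean levels of 28.9 ± 2.33 FPKM in controls and 32.8 ± 1.71 FPKM with inhibitors in Kasumi-1 at 24 h, and of 33.9 ± 2.68 and 33.4 ± 1.71 FPKM at 72 h (SD, n = 4 per side). In SKNO-1 the means were 43.1 ± 5.54 and 50 ± 8.71 FPKM at 24 h and 56.0 ± 5.35 and 62.2 ± 3.54 FPKM at 72 h. The sides overlapped in every set. Its log2 changes of 0.18, -0.02, 0.20 and 0.15 did not pass (limma adjusted p 0.249 to 0.924), and the 95% intervals reached 0.43 at the most.

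PTGS2 was not tested, because 1 of the 32 libraries was above 1 FPKM. Its level in Kasumi-1 was 0.525 to 0.655 FPKM at 24 h and 0.562 to 1.09 FPKM at 72 h, and in SKNO-1 it was 0.114 to 0.391 and 0.129 to 0.314 FPKM. Inhibitor and control libraries overlapped in each set.

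TBXAS1 (ENSG00000059377, chromosome 7, 139476849 to 139720125), the thromboxane synthase, fell in Kasumi-1 at 72 h. There it stood at 1.54 and 1.46 FPKM with DMSO, 1.35 and 1.22 with GSK690*, 0.622 and 0.629 with RN-1, and 0.625 and 0.372 with GSK690. No inhibitor library reached a control, and the mean fell from 1.39 ± 0.140 to 0.562 ± 0.127 FPKM (SD, n = 4 per side), a log2 change of -0.62 ± 0.12 (SE; limma adjusted p = 6.30e-04) that held without any 1 library. At 24 h the Kasumi-1 values were 1.28 and 1.62 FPKM with DMSO, 1.56 and 0.694 with GSK690*, 1.27 and 0.768 with RN-1, and 0.448 and 1.08 with GSK690. These overlapped, and the change of -0.27 did not pass (limma adjusted p = 0.109), although it did without GSK690* replicate 2 (adjusted p = 0.0147) or GSK690 replicate 2 (adjusted p = 0.0308).

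SKNO-1 held more TBXAS1. Its level stood at 10.3 and 11.1 FPKM with DMSO, 9.46 and 10.7 with GSK690*, 9.94 and 10.3 with RN-1, and 11.4 and 9.93 with GSK690 at 24 h, a log2 change of 0.00 (95% interval -0.24 to 0.25). At 72 h it stood at 15.9 and 16.0 FPKM with DMSO, 15.5 and 16.3 with GSK690*, 14.4 and 13.8 with RN-1, and 11.8 and 13.2 with GSK690. The sides of the 72 h set did not overlap, at means of 15.9 ± 0.313 and 13.3 ± 1.09 FPKM (SD, n = 4 per side), but the log2 change of -0.25 did not pass (limma adjusted p = 0.193).

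HPGDS (ENSG00000163106, chromosome 4, 95219685 to 95264027), the prostaglandin D2 synthase of blood cells, was mostly a transcript of SKNO-1. All 13 libraries at 1 FPKM or more were SKNO-1 libraries, and Kasumi-1 ranged from 0.0231 to 0.572 FPKM. In SKNO-1 at 24 h it stood at 1.02 and 2.07 FPKM with DMSO, 0.824 and 1.65 with GSK690*, 0.841 and 1.16 with RN-1, and 0.968 and 2.07 with GSK690, with the library numbered 2 the higher under all 4 agents. At 72 h the 4 controls lay at 1.8 to 2 FPKM and the 4 inhibitor libraries just above, at 2.01 to 2.14 FPKM. That separation was a log2 change of 0.09 (limma adjusted p = 0.736), and over the 4 sets the changes of -0.08 to 0.14 did not pass.

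PTGES (ENSG00000148344, chromosome 9, 132500609 to 132515326), the inducible prostaglandin E2 synthase, was above 0 in 3 of the 32 libraries and never over 0.0175 FPKM. HPGD (ENSG00000164120, chromosome 4, 175411327 to 175444305), the dehydrogenase that inactivates prostaglandins, was listed at 0 in all SKNO-1 libraries and above 0 in 13 of the 16 Kasumi-1 libraries, at up to 0.301 FPKM with RN-1 at 24 h. FPKM carries no read count, so how many reads lie behind these low values is unknown. The inhibitor and control sides of both genes overlapped or were both at 0. Counted without any test, the 4 libraries of each side did not overlap in 3 of the 6 tested genes in Kasumi-1 at 24 h (32.6% of all genes) and 4 at 72 h (28.6%), and in 2 and 4 in SKNO-1 (15.2% at each time).

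RN-1 was set against the DMSO vehicle and GSK690 against its isomer at the same dose. Each pair shared its line and time, with 2 against 2 libraries. Of 24 tests (6 genes in 4 sets) of RN-1 against DMSO, 7 passed. ALOX5 was higher in all 4 sets, by log2 1.04, 0.95, 1.82 and 2.15 (SE 0.31; limma adjusted p = 0.0372, 0.0480, 0.00115 and 1.20e-04), and LTA4H in SKNO-1 at 72 h, by 0.63 (adjusted p = 0.0273). ALOX5AP and TBXAS1 were lower in Kasumi-1 at 72 h, at log2 -1 and -0.62 (limma adjusted p = 0.00245 and 0.0178). Over all genes, 9.08% passed with RN-1 in Kasumi-1 at 24 h and 12.1% at 72 h, and in SKNO-1 2.25% and 3.47%.

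Of 24 tests of GSK690 against its isomer, 5 passed. ALOX5 was higher in SKNO-1, by log2 1.25 and 1.61 at 24 and 72 h (limma adjusted p = 0.0362 and 0.00293), as was LTA4H, by 0.70 and 0.61 (adjusted p = 0.0215 and 0.0390). TBXAS1 was lower in Kasumi-1 at 72 h, at log2 -0.61 (adjusted p = 0.0233). The shares over all genes were 3.94% and 9.75% in Kasumi-1 and 1.63% and 2.83% in SKNO-1. ALOX5 in Kasumi-1, at log2 0.64 and 0.91, did not pass for GSK690 (limma adjusted p = 0.265 and 0.0653), and it did on a scale of log2(FPKM + 0.1), at 1.35 and 2.63 (adjusted p = 0.0402 and 5.49e-05). On that same scale the GSK690 call of ALOX5 in SKNO-1 at 24 h was lost (log2 1.31, adjusted p = 0.0799), as it was with no filter (adjusted p = 0.0813). ALOX5AP in Kasumi-1 did not pass for GSK690 either, at log2 -0.64 and -0.53 (limma adjusted p = 0.085 and 0.107). It did with log2(FPKM + 0.1) (adjusted p = 0.0485 and 0.03) and with quantile normalization (0.0332 and 0.0397). For RN-1 at 24 h it did not pass (adjusted p = 0.158). LTA4H in Kasumi-1 passed for neither inhibitor alone (adjusted p = 0.119 and 0.138 for RN-1, 0.366 and 0.363 for GSK690).

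With 2 libraries a side, single libraries decided several of these calls. For RN-1 in Kasumi-1, the ALOX5 calls were lost without any 1 of their 4 libraries (adjusted p 0.105 to 0.209 at 24 h and 0.0932 to 0.203 at 72 h), as was that of TBXAS1 at 72 h (0.0516 to 0.120). In SKNO-1 the RN-1 call of ALOX5 at 24 h was lost without RN-1 replicate 1 (adjusted p = 0.0780), and that of LTA4H at 72 h without DMSO replicate 1 or RN-1 replicate 2 (0.399 and 0.282). For GSK690 in SKNO-1 at 24 h, ALOX5 dropped to log2 0.68 without GSK690 replicate 1 and 0.90 without GSK690* replicate 2 (adjusted p = 0.931 and 0.594), and LTA4H was lost without the same libraries (0.382 and 0.386). At 72 h the ALOX5 call was lost without GSK690 replicate 1 or GSK690* replicate 2 (0.0687 and 0.0524), and LTA4H dropped to log2 0.35 without GSK690* replicate 1 and 0.37 without GSK690 replicate 2 (0.541 and 0.435). TBXAS1 in Kasumi-1 at 72 h was lost for GSK690 without either GSK690* library or without GSK690 replicate 2 (0.0810 to 0.230). The ALOX5AP call with RN-1 in Kasumi-1 at 72 h and the ALOX5 call with RN-1 in SKNO-1 at 72 h held without any 1 library.

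No gene of the 6 passed between the inactive isomer and DMSO in any of 24 tests (limma; none of all genes passed either, 0% in each set). At an unadjusted p under 0.05 there was 1, ALOX5AP in Kasumi-1 at 72 h, at log2 -0.52 (95% interval -0.95 to -0.09; limma adjusted p = 1). Mean ALOX5 was higher with GSK690* than with DMSO in each of the 4 sets, by log2 0.27, 0.05, 0.36 and 0.61, with intervals that all included 0. In SKNO-1 at 72 h that interval was -0.03 to 1.24.

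RN-1 and GSK690 were compared directly in 24 pairs, and none passed (limma adjusted p 0.864 to 1, and none at an unadjusted p under 0.05; over all genes 1 gene passed, in Kasumi-1 at 72 h, or 0.00841%). The differences, RN-1 minus GSK690, ran from log2 -0.30 to 0.22. For ALOX5 they were 0.13 (95% interval -0.51 to 0.77), -0.01 (-0.65 to 0.62), 0.20 (-0.44 to 0.84) and -0.07 (-0.70 to 0.57). For LTA4H the farthest from 0 was in SKNO-1 at 24 h, at -0.29 (-0.62 to 0.04). Intervals of this width leave room for differences that 2 libraries a side would not show.

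**Figure D3:**
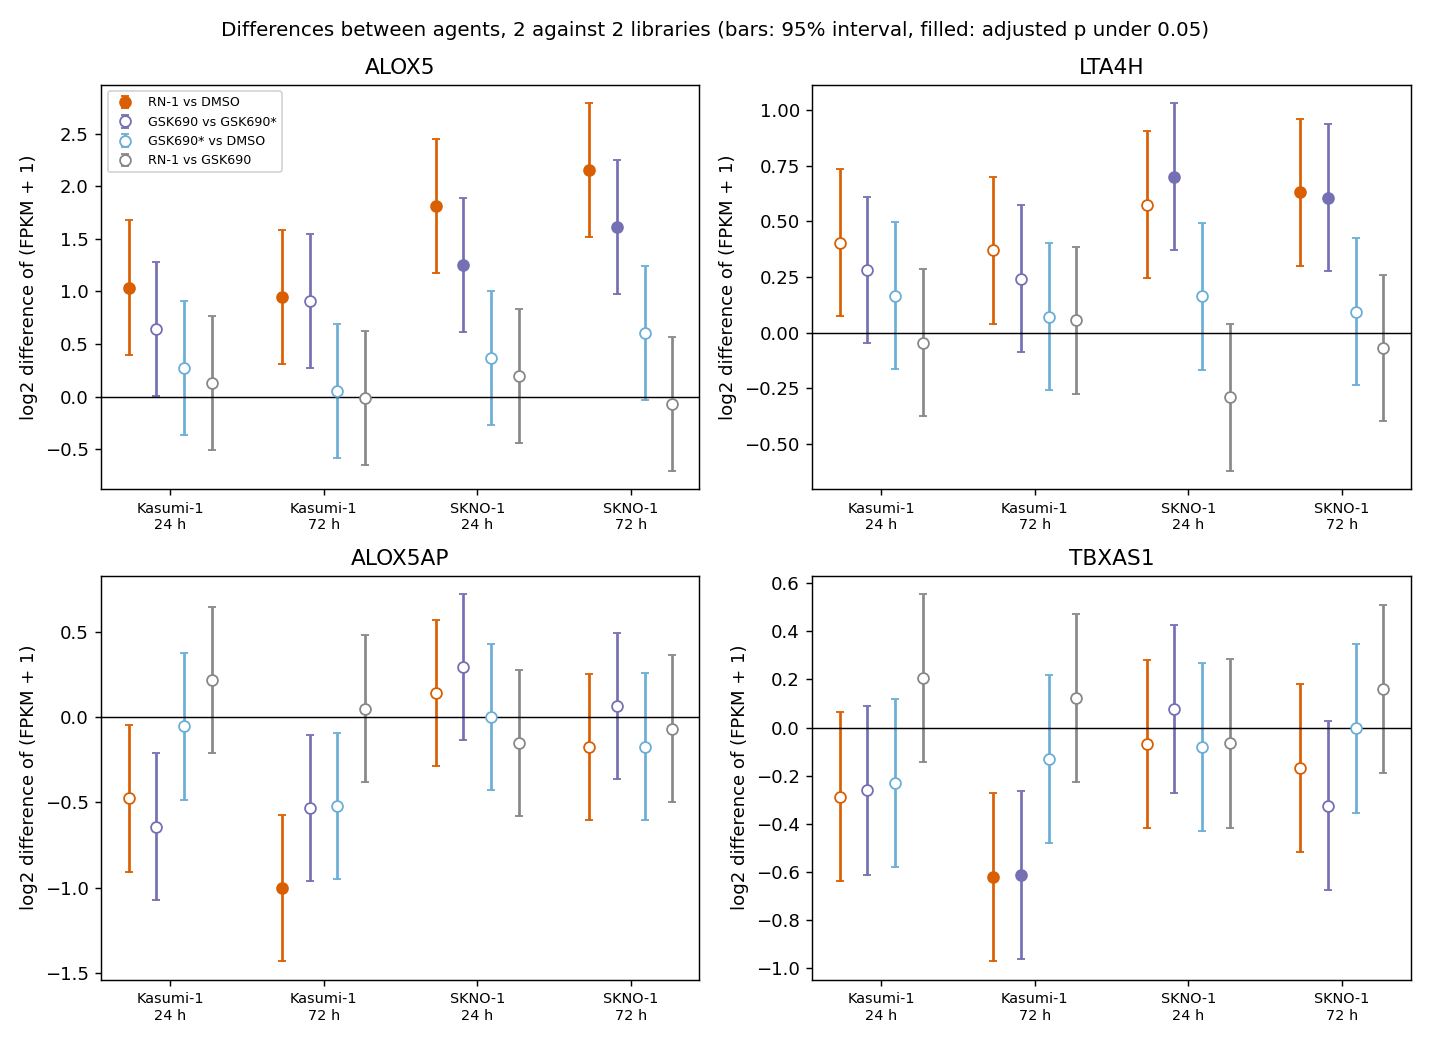
Log2 difference of (FPKM + 1) between agents (vertical axis, with 95% intervals over 2 against 2 libraries) by cell line and time (horizontal axis) for ALOX5, LTA4H, ALOX5AP and TBXAS1, coloured by contrast and filled where the adjusted p was under 0.05. ALOX5 with RN-1 is filled in all 4 sets (0.95 to 2.15) and with GSK690 in SKNO-1 (1.25 and 1.61), and no point of RN-1 against GSK690 or of the isomer against DMSO is filled.

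Times and lines were compared by the difference of their inhibitor changes. Between 72 and 24 h none of the 12 tests passed or had an unadjusted p under 0.05 (limma adjusted p 0.953 to 1, and 0.202% and 0% of all genes passed in Kasumi-1 and SKNO-1). The ALOX5 change at 72 h exceeded that at 24 h by log2 0.09 (95% interval -0.55 to 0.72) in Kasumi-1 and 0.35 (-0.29 to 0.98) in SKNO-1. TBXAS1 in Kasumi-1 came nearest to an unadjusted p under 0.05, at -0.34 (-0.69 to 0.01).

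Between the lines none of the 12 tests passed in the fit without a replicate block (limma; 1.12% of all genes passed at 24 h and 3.47% at 72 h), and 5 had an unadjusted p under 0.05. For ALOX5AP the change in Kasumi-1 minus that in SKNO-1 was log2 -0.78 ± 0.21 (SE) at 24 h and -0.71 at 72 h (limma adjusted p = 0.0757 and 0.0610). For ALOX5 it was -0.70 and -0.96 (adjusted p = 0.427 and 0.0991), and for TBXAS1 at 72 h it was -0.37 (adjusted p = 0.296). With quantile normalization ALOX5AP passed at both times (adjusted p = 0.0213 and 0.0192) and ALOX5 at 72 h (0.0498), and with a pseudocount of 0.1 ALOX5AP passed at 72 h (0.0132). For ALOX5 the direction depended on the offset: with a pseudocount of 0.1 the difference turned to 0.33 at 24 h and 0.82 at 72 h (adjusted p = 0.858 and 0.311).

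The control cells of the 2 lines differed widely in these genes before any inhibitor. In Kasumi-1 controls 5 of the 6 genes were lower than in SKNO-1 controls at each time, where 69.1% of all genes differed at 24 h (30.9% higher and 38.2% lower) and 70.8% at 72 h (32.6% higher and 38.2% lower). The 5 include HPGDS, which reached 1 FPKM in SKNO-1 libraries alone. It thus entered this comparison only through the line where it was higher. ALOX5 differed by log2 -3.24 at 24 h and -3.39 at 72 h, TBXAS1 by -2.33 and -2.82, ALOX5AP by -1.66 and -2.66, HPGDS by -0.91 and -1.45 and PTGS1 by -0.56 and -0.70 (limma adjusted p 9.44e-05 or lower in each). LTA4H did not pass at either time, at 0.22 (95% interval -0.01 to 0.46) and -0.01 (-0.25 to 0.22). With the inhibitors Kasumi-1 reached 1.64 FPKM of ALOX5 at the most, below the lowest SKNO-1 control at 7.88 FPKM.

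Other genes of the pathway were taken from a list of 59 symbols for 58 genes, of which 34 were above the filter. In Kasumi-1, 6 passed at 24 h (17.6%, 3 in each direction) and 7 at 72 h (20.6%, 4 higher and 3 lower), and in SKNO-1 4 passed at 24 h (11.8%, 1 higher and 3 lower) and 7 at 72 h (20.6%, 3 higher and 4 lower). Beside the shares over all genes of 20.9%, 25.7%, 9.08% and 11.1%, the list's share was lower in Kasumi-1 at both times, a little higher in SKNO-1 at 24 h and higher in SKNO-1 at 72 h. Its median log2 change was 0.00, 0.03, 0.05 and 0.02 in the 4 sets. Of the 34 genes, 19 passed in no set and 1, the prostaglandin E2 receptor gene PTGER2, passed in all 4. The counts of higher genes include DPEP2 in Kasumi-1 and OXER1 in SKNO-1 at 72 h. Both reached the filter's 1 FPKM only or mainly in inhibitor libraries.

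Among genes that release arachidonate, PLA2G4A, the cytosolic phospholipase, fell in SKNO-1 from 8.82 ± 0.436 to 6.36 ± 1.00 FPKM at 24 h and from 11 ± 0.672 to 8.18 ± 0.741 FPKM at 72 h (log2 -0.43 and -0.39, SE 0.09; limma adjusted p = 0.00594 and 0.00851). The calcium-independent phospholipase PLA2G6 rose in Kasumi-1 by log2 0.42 and 0.46, from 12.1 ± 1.69 to 16.5 ± 1.51 FPKM at 24 h. The lipases MGLL and DAGLB went opposite ways in different lines: MGLL fell in SKNO-1 (log2 -0.60 and -0.55), and DAGLB rose in Kasumi-1 at 72 h by 0.35. PLA2G4C, another phospholipase, rose in SKNO-1 at 72 h from 0.394 to 1.30 FPKM (log2 0.73).

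No other oxygenase of the list (ALOX12, ALOX12B, ALOX15, ALOX15B, ALOXE3 and CYP2J2) was above the filter, so ALOX5 and PTGS1 were the oxygenases of the pathway that could be tested. Past them, among the tested peptidase genes that trim cysteinyl leukotrienes, DPEP2 was higher in Kasumi-1. It went from 0.383 ± 0.198 to 1.22 ± 0.238 FPKM at 24 h (log2 0.69, limma adjusted p = 1.42e-04) and changed by 0.62 at 72 h. DPEP2 reached 1 FPKM in inhibitor libraries of Kasumi-1 alone, so it entered the test only through the side where it was higher. Its log2 changes in SKNO-1, 0.10 and -0.04, did not pass. GGT1 was higher in SKNO-1 at 24 h, by 0.43, and passed in no other set. GGT5 and DPEP1 passed in no set. PTGES3, a chaperone partner with prostaglandin E synthase activity, fell in Kasumi-1 at 24 h (log2 -0.30), as did PTGR1, a reductase that inactivates these lipids (log2 -0.31). ABCC4, which exports prostaglandins, fell by 0.33 in Kasumi-1 at 72 h. COTL1, an actin-binding partner of 5-lipoxygenase, passed in no set, at log2 -0.14 to 0.01.

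The receptor genes moved in both directions. PTGER2 fell in Kasumi-1 from 5.25 ± 0.187 to 3.50 ± 0.198 FPKM at 24 h and from 8.08 ± 0.555 to 5.33 ± 1.04 FPKM at 72 h, and in SKNO-1 from 2.03 ± 0.493 to 0.784 ± 0.463 and from 3.21 ± 0.537 to 1.35 ± 0.405 FPKM (SD, n = 4 per side). Its log2 changes were -0.48, -0.53, -0.79 and -0.85 (SE 0.16; limma adjusted p = 0.0391, 0.0175, 0.00314 and 0.00112). The thromboxane receptor gene TBXA2R fell at 72 h in both lines (log2 -0.54 in Kasumi-1 and -0.57 in SKNO-1). On the leukotriene side, CYSLTR1, a cysteinyl leukotriene receptor, rose in Kasumi-1 from 20.6 ± 1.92 to 26.5 ± 1.08 FPKM at 24 h (log2 0.35). It rose there at 72 h too (log2 0.26), outside the 6 largest changes to which naming was limited. OXER1, the receptor of a 5-lipoxygenase product, rose in SKNO-1 at 72 h from 0.488 ± 0.199 to 1.03 ± 0.176 FPKM (log2 0.46). Its controls reached 1 FPKM only in Kasumi-1 at 72 h, where the highest stood at 1.10 FPKM. OXER1 therefore entered the test mainly through inhibitor libraries.

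**Figure D4:**
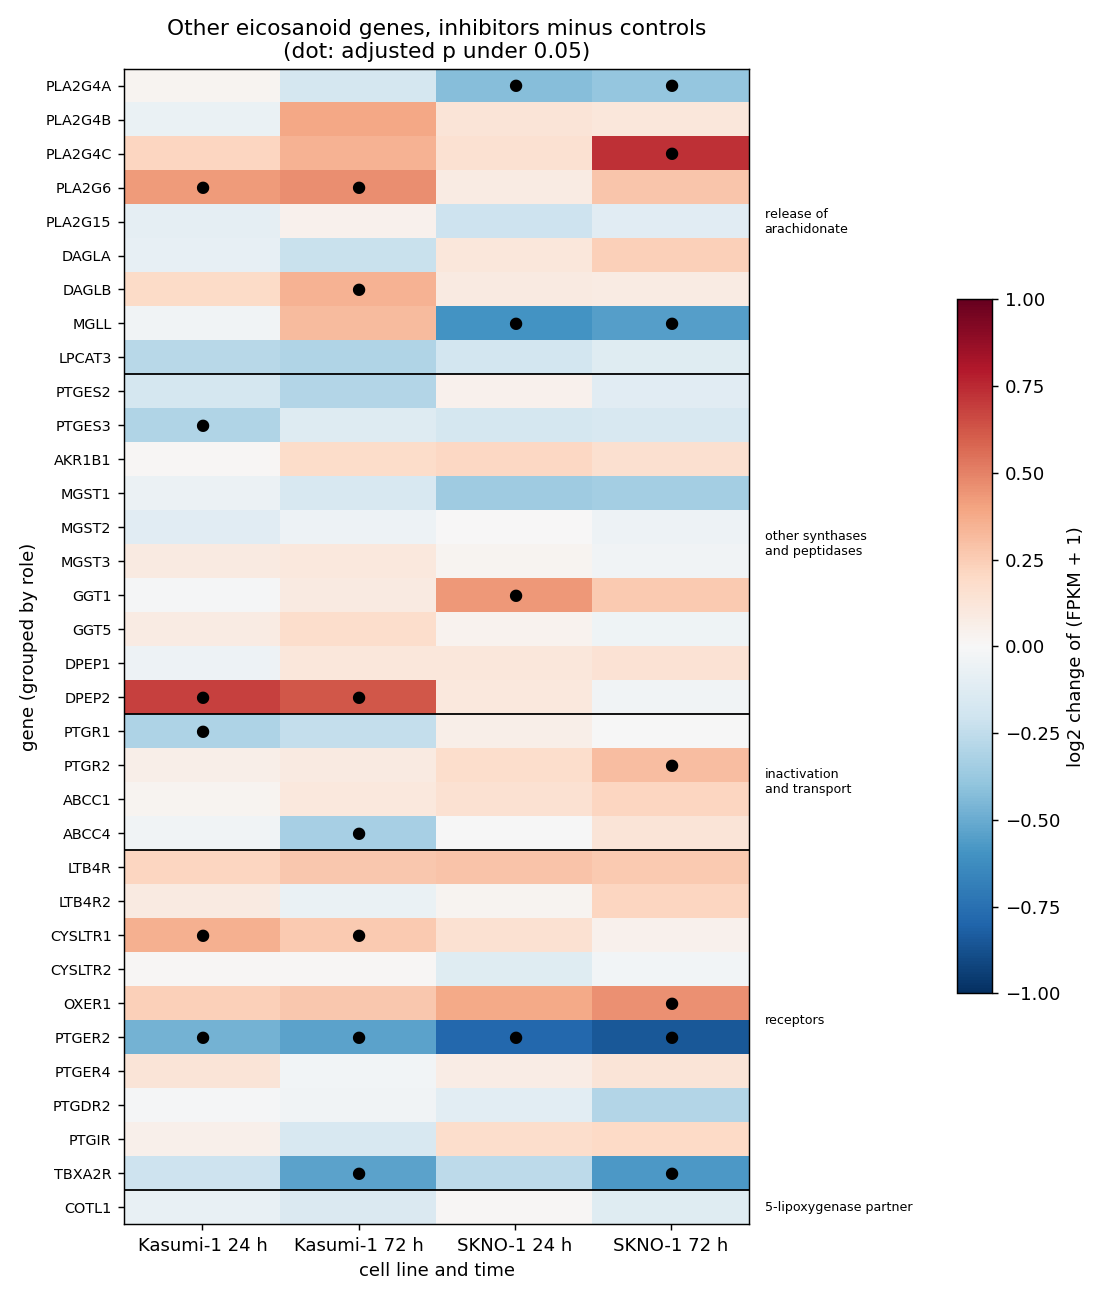
Log2 change of (FPKM + 1) with the inhibitors (colour, red higher and blue lower) for the 34 other pathway genes above the filter (vertical axis, grouped by role) in each cell line and time (horizontal axis), with a dot where the adjusted p was under 0.05. PTGER2 is the row with a dot in all 4 sets (-0.48 to -0.85), and PLA2G4A and MGLL have dots in SKNO-1 alone.

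Genes whose level followed each of 3 genes of the leukotriene route most closely were found over the 32 libraries, after the mean of each set of 8 was taken off. ALOX5 was closest to SPTAN1 (Pearson r 0.982), CCDC74A (0.962) and SPTBN1 (0.955), the first and last of which encode spectrin chains. LTA4H was closest to RCSD1 (0.938), IFI16 (0.935) and BNIP3L (0.932), and ALOX5AP to PLXNA4 (0.855), WDR77 (0.813) and VDR (0.807). These are descriptions over libraries that share treatments, with the genes picked for the highest value.

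Markers of the cells that use these enzymes were read beside them. Of 8 monocyte and macrophage markers, 4 were tested, of which 3 rose with the inhibitors in Kasumi-1 at each time and 2 in SKNO-1 at each time. Over all genes, 9.69% and 13% rose in Kasumi-1 at 24 and 72 h, and 5.64% and 6.91% in SKNO-1. The marker CD68 overlapped between the sides in every set. At 24 h it stood at 15.69 to 24.28 FPKM in controls and 22.35 to 25.04 FPKM with inhibitors in Kasumi-1. In SKNO-1 at 24 h it stood at 2.38 to 5.53 and 2.03 to 3.62 FPKM. Their summed level was 29.7 to 55.8 FPKM in controls and 137 to 193 FPKM with inhibitors in Kasumi-1 at 24 h, 32.6 to 48.2 and 92.0 to 135 at 72 h, and 39.2 to 61.9 and 88.9 to 146 in SKNO-1 at 24 h. In SKNO-1 at 72 h it was 47.7 to 64.2 and 122.5 to 159 FPKM. Of this sum the lysozyme gene LYZ made 53.9 to 151 FPKM with inhibitors in Kasumi-1 and 84.2 to 152 FPKM in SKNO-1, and CD14 stayed at or below 0.262 FPKM and CD163 at or below 0.385 FPKM in every library. Of 7 mast cell markers, 4 were tested. In SKNO-1 3 and 4 of the 4 rose at 24 and 72 h, the sums being 13.4 to 22.9 FPKM in controls and 16.4 to 66.8 with inhibitors at 24 h and 10.7 to 26.4 and 40.2 to 63.3 at 72 h, while MS4A2 and CMA1 were near 0. In Kasumi-1 the mast cell sum never passed 3.22 FPKM. There too the inhibitor libraries lay above the controls, at 1.99 to 2.88 against 1.34 to 1.93 FPKM at 24 h and 2.17 to 3.22 against 0.473 to 0.956 FPKM at 72 h, and 1 marker of the 4 rose at 72 h. The monocyte sum in all 4 sets and the mast cell sum in all but SKNO-1 at 24 h lay higher in every inhibitor library than in every control, as ALOX5 and LTA4H did, and their part in the result was not tested.

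Eosinophil and basophil markers summed to 58.4 to 143 FPKM in SKNO-1 and to at most 0.587 FPKM in Kasumi-1. In SKNO-1 at 72 h 1 of the 4 tested rose and 2 fell, and none passed at 24 h (0 of 4). Of 6 platelet and megakaryocyte markers PF4 was at 0 in every library, and the 1 tested, ITGA2B, an integrin chain, stood at 10.7 to 27.7 FPKM in controls and 25.9 to 47.8 FPKM with inhibitors in SKNO-1 at 72 h, where it rose. At 24 h it stood at 16.4 to 20.8 and 19.1 to 42.9 FPKM and did not pass, and in Kasumi-1 it reached 1.48 FPKM at the most. Of 6 neutrophil markers, the granule genes MMP8, LTF and CAMP and the receptor FCGR3B were at or below 0.1 FPKM throughout. The growth factor receptor CSF3R stood at 266 to 348 FPKM in Kasumi-1 and 71.7 to 154 FPKM in SKNO-1, and the chemokine receptor CXCR2 at 1.19 to 2.77 FPKM, and 1 of these 2 rose, in Kasumi-1 at 24 h. Of 6 blast markers, all tested, 2 rose in each set and 1 fell in each set but SKNO-1 at 72 h. In Kasumi-1 at 72 h CD34 stood at 68.6 to 105 FPKM in controls and 201 to 245 FPKM with inhibitors, and KIT at 290.4 to 319 and 178 to 239 FPKM. In SKNO-1 CD34 was at most 4.65 FPKM, and MPO stood at 1218 to 6612 FPKM over both lines. The part of these marker changes in the results was not tested.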

How the data were processed

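The authors deposited FPKM per gene for 32 RNA-seq libraries, with a table of gene symbols and loci and a table of sample names. The submitters' processing notes name TopHat 1.4.1, Cufflinks and hg19, with no order or role. RNA was taken with Trizol or RNeasy Plus, per the labels' protocols, and the annotation, the strandedness and further scaling are not given in the sources used here. FPKM summed to 332648 to 395945 per library and replicates correlated across genes at r 0.986 to 0.996. LTC4S values as low as 1.31e-118 show estimates rather than whole reads, so read depth is unknown and no counting interval is given. Missing values in 30 genes touch none of the 10.

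From these, the 11890 genes that reached 1 FPKM in 2 or more libraries were fitted as log2(FPKM + 1) with limma 3.58.1 in R 4.3.3, with 16 group means, a variance trend, 16 residual degrees of freedom, 2-sided tests and Benjamini-Hochberg adjustment over all genes tested (threshold 0.05). The fit was tested on simulated data. Promoter windows were searched in Python 3.11.15 with numpy 2.4.6 and pandas 2.3.3, and matplotlib 3.10.9 drew the figures. The 10 genes, the pathway and marker lists and the tests were chosen with earlier results of these data known. The rule names all 10 genes, per set up to 6 pathway genes that passed, by size of change, and the 3 closest genes by Pearson r to each gene that passed in at least 2 sets. Alternatives were another pseudocount, no filter, quantile and median-of-ratios scaling, fits by set, 2 groups of 4, a replicate block, a library-name term, DMSO alone as control and each library left out.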

Additional observations from a re-analysis of the deposited data

Results flagged for a closer look

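In 63 groups of 4 libraries (the inhibitor or the control side of a gene in a set, with at least 0.1 FPKM in 1 library), 5 had 1 library whose gap to the next exceeded, as a share of the range, Dixon's 95% critical value, and chance gives about 1 in 20. ALOX5AP in Kasumi-1 at 24 h was 2.85 FPKM in RN-1 replicate 1, and 1.81 to 1.96 FPKM in the other inhibitor libraries, so that 1 library narrows its distance from the controls. LTA4H in SKNO-1 at 24 h was 65.2 FPKM in GSK690* replicate 1, and 52.8 to 54.7 FPKM in the other controls. TBXAS1 in Kasumi-1 at 72 h was 0.372 FPKM in GSK690 replicate 2, and 0.622 to 0.629 FPKM in the other inhibitor libraries. PTGS2 in Kasumi-1 at 72 h was 0.562 FPKM in GSK690* replicate 1, and 0.858 to 0.918 FPKM in the other controls. HPGDS in Kasumi-1 at 72 h was 0.232 FPKM in RN-1 replicate 1, and 0.0534 to 0.0792 FPKM in the other inhibitor libraries.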

How the results depend on the processing

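Of 876 values of single genes under the alternatives that keep all libraries, 830 kept their direction and call or, in 24 of them, changed sign with no call in either fit. Calls were lost in 14 and gained in 32, and no called value reversed. With each library left out the numbers were 1056, 1005 (113 of them changes of sign with no call), 43 lost, 8 gained and 0 reversed. The count of calls for both inhibitors against both controls was 11 of 24, and 8 to 11 without 1 library. For RN-1 against DMSO the count was 7 (5 to 8 without 1 library), and 4 with no filter, where more genes were tested. For GSK690 against GSK690* it was 5 (3 to 6 without 1 library), 8 with a pseudocount of 0.1 and 3 with no filter. Between the lines' changes it was 0 (0 to 3 without 1 library), 1 with a pseudocount of 0.1 and 3 with quantile normalization; the cause was not tested. Those gains without 1 library came on leaving out SKNO-1 libraries (at 72 h RN-1 replicate 2 or the library numbered 1 of DMSO or GSK690*, and at 24 h either library of RN-1 or GSK690). Between the lines' controls it was 10 (10 to 11), and for the isomer, RN-1 against GSK690 and the times it was 0 in each case.

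LTA4H in Kasumi-1 at 72 h also lost its call with a pseudocount of 0.1 (adjusted p = 0.0505), with no filter (0.0835) and with DMSO alone as control (0.0875), and at 24 h with no filter (0.0610). TBXAS1 in Kasumi-1 at 24 h passed with quantile normalization (0.0205). A block for replicate number raised the counts to 11 for RN-1, 11 for GSK690 and 6 between the lines. The 6 were ALOX5AP (limma adjusted p = 6.49e-04 and 5.89e-04 at 24 and 72 h), ALOX5 (0.0116 and 4.28e-04) and LTA4H (0.0309 and 0.0129). With the block PTGS1 passed at 24 h in Kasumi-1 (0.0251) and SKNO-1 (0.0216). The share of all genes that passed was not counted with the block, nor for the other alternative counts given above for these contrasts. Whether the gains went beyond those of the whole table is therefore unknown. Same-numbered libraries of a set correlated in their deviations at r 0.133 to 0.450, 0.0431 to 0.481, 0.294 to 0.525 and 0.145 to 0.697 in the 4 sets, all positive, a hint from the data of a shared effect of the number. The labels do not say that a number marks a shared batch, and with 2 replicates a group the block was kept as an alternative. Median-of-ratios scaling moved all calls from 1152 higher and 1327 lower to 1428 and 1018 in Kasumi-1 at 24 h, from 1547 and 1505 to 1759 and 1262 at 72 h, and from 671 and 409 to 829 and 273 in SKNO-1 at 24 h, with medians of all genes within 0.031 of 0. The term for the 2 prefixes of library names in SKNO-1 at 72 h changed no call of these genes. Unknown depth limits LTC4S, PTGS2, PTGES and HPGD, whose levels were given with no test.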
